A study of Mus musculus with 26 samples.

Results

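The regions described here are the 5313 stretches of mouse embryonic stem cell chromatin that sequential ChIP recovered in both antibody orders although neither single-mark ChIP listed them. They were taken as the regions with identical coordinates in the E14 K4-K27 and K27-K4 region tables that overlapped, by at least 1 bp, no region of the E14 total H3K4me3 table and none of the E14 total H3K27me3 table. They made up 24.3% of the 21857 regions shared by the reChIP tables. Of the other shared regions, 2774 (12.7%) overlapped both totals, 11334 (51.9%) overlapped H3K4me3 only and 2436 (11.1%) overlapped H3K27me3 only. The E14 K4-K27 and K27-K4 tables together gave 38918 regions, over which every test was fitted. Shares of all regions tested therefore refer to regions that an E14 reChIP table listed.

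The study asked whether sequential ChIP measures bivalent chromatin directly and how that chromatin depends on DPPA2 and DPPA4. Chromatin was cut with MNase and precipitated first with an H3K4me3 antibody and then with an H3K27me3 antibody (K4-K27), or in the opposite order (K27-K4), and 10% of the first eluate was sequenced as the in-line total of that mark. The study found these in-line totals noisier than the reChIPs, likely through low starting material, and called few peaks from them. With independent totals from more cells, few of its shared reChIP peaks lacked both. A region missing from both in-line totals therefore need not lack either mark. All cells were E14 mouse embryonic stem cells grown in serum and LIF. There were 26 libraries, 9 from non-clonal WT E14 cells and 17 from clones of the same line. In E14 cells each of the 4 ChIPs had 2 replicates, of which replicate 1 was in sequencing batch A and replicate 2 in batch B, with 1 IgG–IgG control in batch A. In batch C each ChIP was made from WT clones 57 and 58 and from DPPA2/4 double knockout (DKO) clones 43 and 53, with 1 IgG–IgG control from WT clone 57. A genotype is therefore 2 clones with 1 library of each ChIP, and p-values measure only the spread between clones. No DKO IgG–IgG library was used here, and DKO levels above IgG–IgG are read against the WT clone 57 control.

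Nucleosomes that carry both H3K4me3, a mark of active promoters, and H3K27me3, the mark of Polycomb repressive complex 2, are called bivalent. In embryonic stem cells bivalency is known above all from CpG-rich promoters of developmental genes that are silent but can be induced later. DPPA2 and DPPA4 are small DNA-binding proteins of early embryos and pluripotent cells that are known to be needed for bivalency at a subset of such promoters. A single-mark ChIP measures a mark on all nucleosomes that carry it, whereas the reChIP is designed to enrich for fragments carrying both marks. In these bulk libraries, fewer cells carrying a mark and less of it in each cell cannot be told apart.

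Most of these regions lay away from promoters. A start site annotated by RefSeq lay within 1.5 kb of 1357 regions (25.5%), 937 (17.6%) overlapped an exon outside promoters, 691 (13%) were intronic and 2328 (43.8%) were intergenic. Promoters made up 78.4% of the shared regions with both totals, 76.1% of those with H3K4me3 only and 34.2% of those with H3K27me3 only. The regions were also narrower, with a median width of 2400 bp (quartiles 1500 and 3900 bp, range 300 to 25050 bp) against 6450 bp with both totals, 3150 bp with H3K4me3 only and 3750 bp with H3K27me3 only. The median distance to the nearest start site was 16218 bp.

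Their sequence held local clusters of CpGs. The median region had a GC content of 49.8%, 2.00 CpGs per 100 bp and a ratio of observed to expected CpGs of 0.325, between the regions with H3K27me3 only (1.77 CpGs per 100 bp and 0.298) and those with both totals (2.37 and 0.382) or H3K4me3 only (2.82 and 0.449). Its densest 200-base window held a median of 12 CpGs, as in the regions with H3K27me3 only (12), and fewer than in those with both totals (26) or H3K4me3 only (23). An island-like window, with a ratio above 0.6 and a GC content above 50%, was present in 3447 regions (64.9%), against 94.8% with both totals, 88.3% with H3K4me3 only and 61.7% with H3K27me3 only. Repeat-masked sequence took up a median of 15.8% of a region. The X chromosome carried 3.11% of them, against 0.793% of the regions with both totals, 3.63% with H3K4me3 only and 1.60% with H3K27me3 only.

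Short sequence words were counted on both strands in the central 300 bases of each region, each word on its own, so that a base could be part of more than 1 word. The CpG run CGCGCG was present in 4.08% of the regions, the GC box GGGCGG in 19.5% and the E-box CACGTG in 6.38%. The shares were 10.9%, 28.3% and 3.68% in the regions with both totals, 9.51%, 31.0% and 5.76% in those with H3K4me3 only, and 3.94%, 14.7% and 4.76% in those with H3K27me3 only. Among 32851 RefSeq promoters of the same length (250 bases before to 50 after the start site) they were 11.3%, 35.7% and 7.15%. Such a match describes the letters and is not a binding site.

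The densest CpG window of 7 regions is printed here because they show how dense the local CpG clusters were at regions with some of the largest reChIP differences from IgG–IgG in WT clones, at promoters and far from them alike. Each is 200 bases of the GRCm38 plus strand from RefSeq, in lower case with each CpG in capitals. The first 3 are promoters, the next 2 are far from any start site, and the last 2 are shown as the regions with the largest falls in DKO clones.
Rbm46 promoter (33 CpGs), chr3:82876060-82876259: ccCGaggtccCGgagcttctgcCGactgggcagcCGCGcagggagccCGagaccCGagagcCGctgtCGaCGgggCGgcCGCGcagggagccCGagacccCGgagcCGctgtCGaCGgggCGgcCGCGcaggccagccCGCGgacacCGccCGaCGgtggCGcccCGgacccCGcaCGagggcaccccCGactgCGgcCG
Aff2 promoter (32 CpGs), chrX:69360333-69360532: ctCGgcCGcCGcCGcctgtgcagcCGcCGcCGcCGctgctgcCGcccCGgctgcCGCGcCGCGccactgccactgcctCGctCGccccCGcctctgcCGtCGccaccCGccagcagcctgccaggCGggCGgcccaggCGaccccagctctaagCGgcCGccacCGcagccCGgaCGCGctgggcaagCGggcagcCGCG
Ptchd1 promoter (37 CpGs), chrX:155623314-155623513: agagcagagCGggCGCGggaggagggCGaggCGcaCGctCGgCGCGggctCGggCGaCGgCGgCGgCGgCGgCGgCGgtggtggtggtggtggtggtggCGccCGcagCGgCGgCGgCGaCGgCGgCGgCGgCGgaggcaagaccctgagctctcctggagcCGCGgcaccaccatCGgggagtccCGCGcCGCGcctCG
Intergenic region nearest Lin28b (39 CpGs), chr10:45485702-45485901: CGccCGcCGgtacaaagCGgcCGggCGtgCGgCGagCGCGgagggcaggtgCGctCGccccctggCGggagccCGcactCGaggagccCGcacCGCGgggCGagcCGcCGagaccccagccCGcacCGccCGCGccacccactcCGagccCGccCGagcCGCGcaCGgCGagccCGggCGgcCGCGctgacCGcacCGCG
Intergenic region nearest Tbca (27 CpGs), chr13:94702591-94702790: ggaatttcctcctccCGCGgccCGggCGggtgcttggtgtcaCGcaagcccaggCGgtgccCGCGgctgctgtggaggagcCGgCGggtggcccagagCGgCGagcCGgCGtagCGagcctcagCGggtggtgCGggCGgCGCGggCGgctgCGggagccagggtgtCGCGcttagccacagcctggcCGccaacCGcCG
Intergenic region nearest Gm21671 (27 CpGs), chr5:25956765-25956964: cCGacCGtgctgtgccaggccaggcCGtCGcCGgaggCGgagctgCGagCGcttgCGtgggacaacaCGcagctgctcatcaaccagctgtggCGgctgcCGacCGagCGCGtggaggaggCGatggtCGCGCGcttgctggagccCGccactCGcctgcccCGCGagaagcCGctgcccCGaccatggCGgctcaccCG
Intron of Zfp978 (28 CpGs), chr4:147187505-147187704: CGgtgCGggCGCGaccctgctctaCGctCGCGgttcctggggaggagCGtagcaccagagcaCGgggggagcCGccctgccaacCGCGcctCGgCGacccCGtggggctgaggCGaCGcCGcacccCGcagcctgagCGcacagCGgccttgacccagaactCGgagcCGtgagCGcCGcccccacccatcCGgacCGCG
All 7 windows hold more than the 12 CpGs of the median region.

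Levels are log2 values of RPM (reads scaled to library size) per kb of region, as deposited, and a region with 0 reads had been entered as 0.9 reads. The rule used the E14 tables, so the E14 levels are a description of the choice. The median region had K4-K27 levels of 0.24 (replicate 1) and 0.66 (replicate 2), K27-K4 levels of 0.57 and 1.28, and lay at −0.25 and −0.29 in total H3K4me3, at −0.27 and −0.31 in total H3K27me3 and at −0.67 in IgG–IgG. Taken region by region above IgG–IgG, the K4-K27 medians were 1.02 and 1.49 and the K27-K4 medians 1.36 and 2.13, against 0.46 and 0.49 in total H3K4me3 and 0.43 and 0.42 in total H3K27me3. The single-mark libraries thus sat a little above the control and the reChIP libraries further above it. In the regions with both totals the reChIP medians above IgG–IgG were 2.33 and 2.75 (K4-K27) and 2.47 and 3.74 (K27-K4), and the total medians 0.83 and 0.95 (H3K4me3) and 0.94 and 0.95 (H3K27me3).

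**Figure D1:**
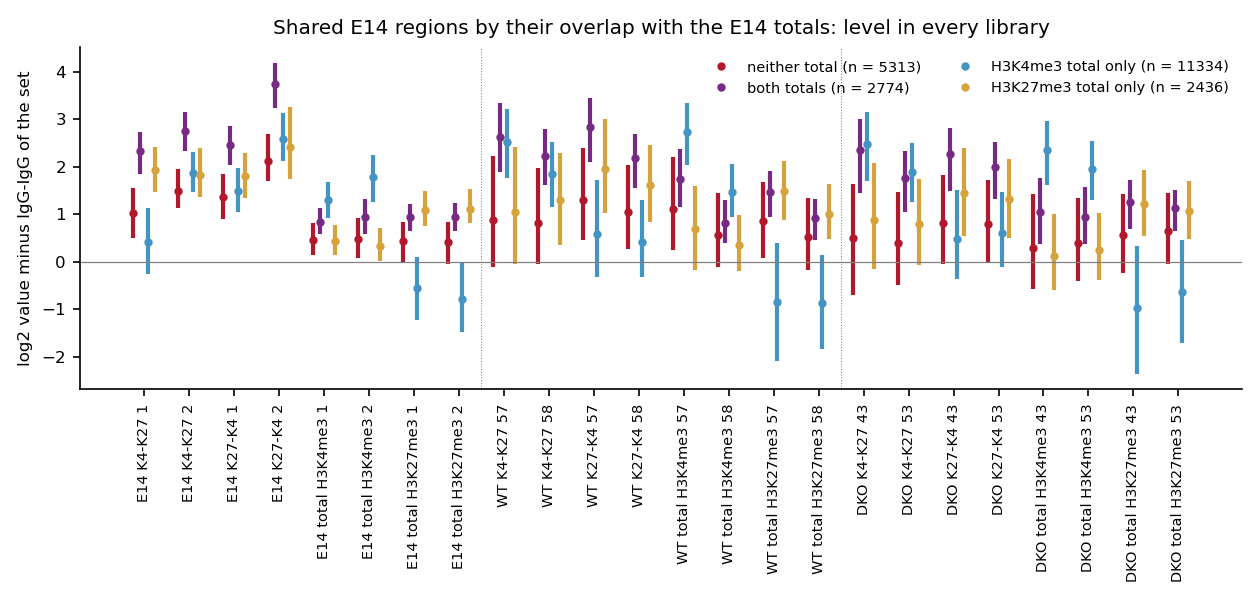
Median (point) and quartiles (bar) of the log2 difference from the IgG–IgG library of each set, in every library, for the 5313 regions with neither E14 total and the other 3 classes of shared region. For neither total, E14 reChIP medians run from 1.02 to 2.13 above IgG–IgG with E14 totals at 0.42 to 0.49, whereas the WT clone totals at 0.52 to 1.11 approach the WT reChIPs at 0.82 to 1.30.

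Not every region stood clear of the control in each E14 library. A level at least 1 log2 unit above IgG–IgG was reached by 50.5% and 83.1% of the regions in K4-K27 replicates 1 and 2 and by 69.6% and 98.1% in K27-K4. All 4 reChIP libraries passed this level at 2249 regions (42.3%), 3 at 1538 (28.9%), 2 at 905 (17.0%), 1 at 587 (11%) and none at 34 (0.640%). Of the single-mark libraries, none passed it at 3285 regions (61.8%). Both H3K4me3 totals passed at 614 (11.6%), both H3K27me3 totals at 688 (12.9%) and all 4 totals at 306 (5.76%), so a region outside the tables of totals can still carry single-mark signal in the libraries. The median region had 13 reads in the E14 IgG–IgG library, 69 regions (1.30%) had 0 there, and the deepest E14 library, K27-K4 replicate 2, gave a median of 285 reads.

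Few regions lay at the edge of the rule. The median distance to the nearest region of an E14 total was 12451 bp, and 429 regions (8.07%) lay within 1 kb of one, 372 of them (7.00%) near an H3K27me3 region and 62 (1.17%) near an H3K4me3 region. The 5 regions named just inside the rule, each adjacent to an H3K27me3 region, were in an exon of Unc80, near Nyap2, near Cacna1e, near Sec16b and in an exon of Atp1a4. They were tied in this distance and all lay on chromosome 1, so other regions may tie with them. Their mean WT reChIP levels above IgG–IgG were 0.29, 3.36, −0.52, 3.06 and 1.5. The 5 shared regions named just outside it, with the smallest overlap of a total, were near Gm29483, in an intron of Fam227b and Fgf7, near Gm32561, near Smim43 and near Adar, with 1.07, −2.06, 2.45, 0.07 and 2.42. Ties also occurred there, as at Gm29483 and Fgf7 with an overlap of 150 bp each. The ranges of these examples on either side of the edge overlap.

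The labels were checked at marker promoters. All 8 embryonic stem cell markers, Pou5f1, Nanog, Sox2, Klf4, Esrrb, Zfp42, Tdgf1 and Dppa5a, had a total H3K4me3 region in the E14, WT and DKO tables, and of 6 fibroblast or feeder markers 3, 3 and 2 had one. Of the 8 stem cell promoters, the E14 K4-K27 and K27-K4 tables listed 6 and 7, and the WT ones 8 and 2. The E14 and WT total H3K27me3 tables each listed 1. Pou5f1 was in both E14 reChIP tables, with total H3K27me3 at −1.61 and −2.09 and IgG–IgG at 0.10. Listing in both orders thus does not by itself show both marks. The part of signal carried over from the first precipitation was not tested. The promoters of Dppa2 and Dppa4 kept a total H3K4me3 region in the DKO tables. Dppa2 lay at 1.90 and 0.77 in WT clones and 1.46 and 0.84 in DKO clones, and Dppa4 at 2.34 and 1.45 against 2.25 and 1.41, so promoter H3K4me3 does not check the knockout. Total reads ranged from 6741244 to 47903462 per library.

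Whether the regions recur in independent libraries was asked first of the clone region tables, a region being listed where a clone region overlaps it by at least 1 bp. Each table holds 1 set of regions per ChIP and genotype. The study's methods called peaks in each replicate and intersected replicates. They name another peak caller than the MACS2 of the submitters' processing notes, and the study counted fewer E14 reChIP peaks than the regions used here. The regions used here therefore need not be the peaks of the study. The tables do not say whether a listed region was called in 1 clone or in both. Of the regions, 1890 (35.6%) were in the WT K4-K27 table and 2521 (47.4%) were in the WT K27-K4 table. Both WT reChIP tables listed 1542 (29.0%), 1 of them 1327 (25%) and neither 2444 (46.0%), whereas both listed 42.8% of all shared regions. No clone table of any kind listed 1719 (32.4%), against 12.7% of all shared regions. At the other end, 320 regions (6.02%) were listed by all 8 clone tables, against 12.6% of all shared regions.

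In the WT clones the single-mark tables did list some of these regions. The WT total H3K4me3 table listed 2288 (43.1%, against 73.8% of all shared regions) and the table of WT total H3K27me3 listed 1312 (24.7%, against 26.7%). Both WT totals listed 855 (16.1%, against 21.1%), H3K4me3 alone 1433 (27%, against 52.8%), H3K27me3 alone 457 (8.60%, against 5.64%) and neither 2568 (48.3%, against 4488 of the 21857 shared regions). Of the 1542 regions in both WT reChIP tables, 700 had both WT totals, 631 H3K4me3 alone, 102 H3K27me3 alone and 109 neither. The combination that defined the regions in E14 cells, both reChIPs with neither total, was thus present in the WT tables at 109 of them (2.05%), and at 276 (1.26%) of all shared regions.

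**Figure D2:**
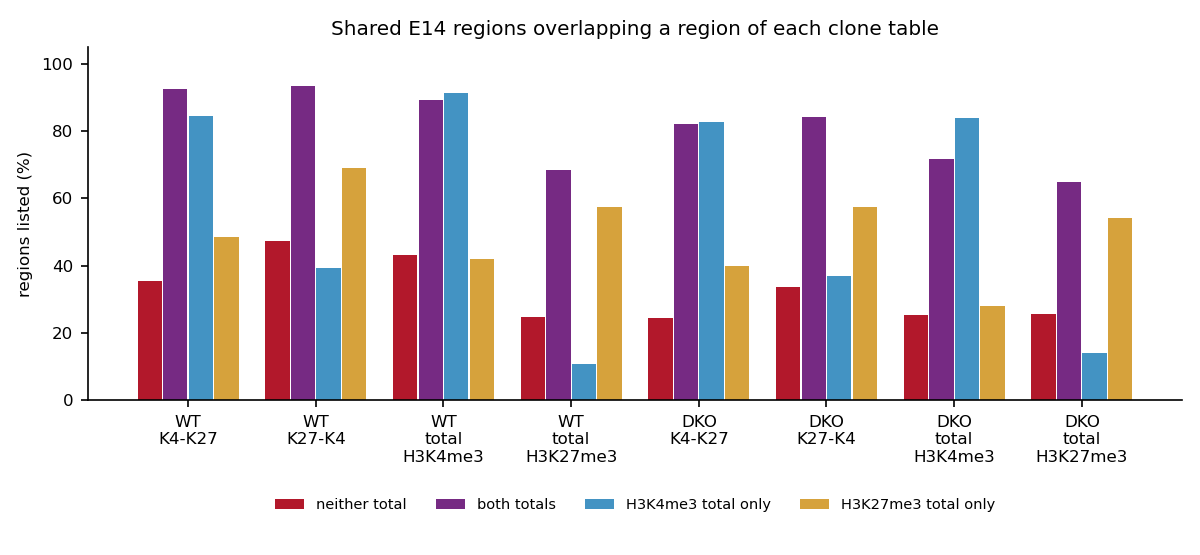
Share (%) of regions listed by each of the 8 clone tables, for the regions with neither E14 total and for the other classes of shared region. For the regions with neither total, the shares run from 24.7% to 47.4% in WT and from 24.5% to 33.6% in DKO clones.

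The DKO tables listed fewer of them for the reChIPs and for H3K4me3, as they did of all shared regions, where the shares went from 69.7% in WT to 63.8% in DKO for K4-K27, from 51.5% to 44.4% for K27-K4 and from 73.8% to 61.9% for H3K4me3. The DKO K4-K27 table listed 1304 (24.5%), DKO K27-K4 1786 (33.6%) and DKO total H3K4me3 1346 (25.3%), while DKO total H3K27me3 listed 1368 (25.7%), close to the WT count. Both DKO reChIP tables listed 1065 (20%, against 37.1% of all shared regions). In both reChIP tables of WT and of DKO clones there were 817 (15.4%, against 31.5%). There were 457 regions (8.60%) in both WT reChIP tables and in neither DKO reChIP table, and 59 (1.11%) with the reverse pattern, against 5.45% and 0.732% of all shared regions.

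The regions that the clone tables listed were the wider, CpG-denser and more often promoter-proximal ones. From no clone table to all 8, the share of promoters went from 10.1% to 67.5%, the median width from 1650 to 5025 bp and the densest window from 10 to 23 CpGs. The median of the WT reChIP level above IgG–IgG (mean of the 4 WT reChIP libraries) went from 0.03 to 2.55, and that of the E14 reChIP level from 1.40 to 2.00. The WT tables were called from these same WT libraries, so the rise of the WT level describes the grouping and is no separate result. Across all 5313 regions the E14 and WT levels had a Spearman correlation of 0.312, given as a description since both levels of a region share its width and base composition. Wider regions, which a clone region can overlap at more places, were listed more often. Both WT reChIP tables listed 8.28%, 16.3%, 33.4% and 58.1% of the regions in 4 equal groups by width, whose median widths were 1050, 1950, 3000 and 5400 bp. By place they listed 57.6% of promoters, 31.1% of exonic, 16.8% of intergenic and 11.3% of intronic regions, and 38.9% of the regions with an island-like window against 10.8% without. The separate parts of width, place and CpG content were not tested.

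**Figure D3:**
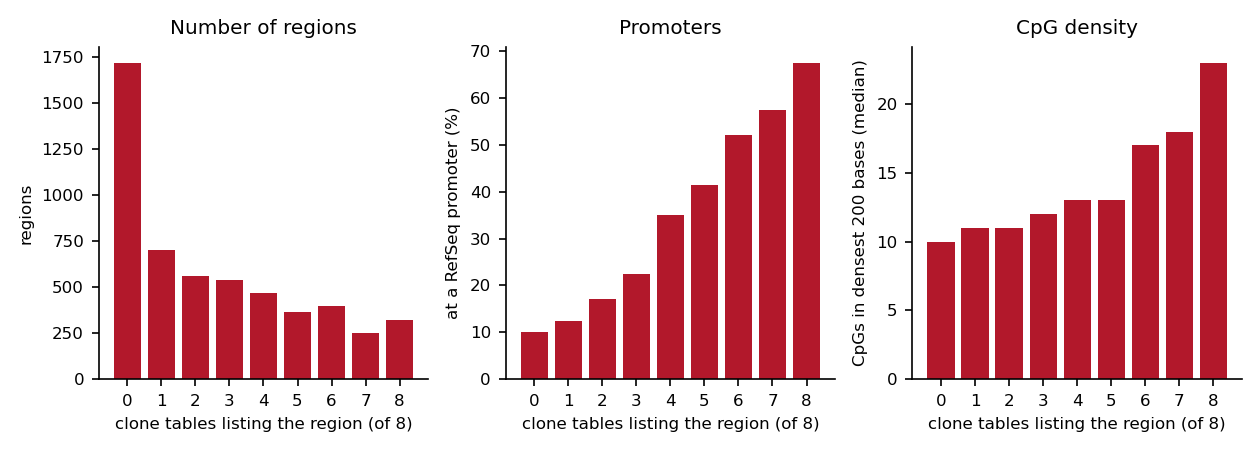
Regions grouped by the number of clone tables (0 to 8) that list them, with the number of regions (left), the share at RefSeq promoters in % (middle) and the median number of CpGs in the densest 200 bases (right). From 0 to 8 tables the promoter share goes from 10.1% to 67.5% and the CpGs from 10 to 23.

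Among the regions that no clone table listed, 5 are named for the largest E14 reChIP differences from IgG–IgG. These were an intron of the receptor kinase gene Alk at chr17:71985751-71986950, a site 30700 bp from Dlx4, an exon of the coagulation factor gene F3, a site 293866 bp from Nrcam and the promoter of Bglap2. Their E14 reChIP levels above IgG–IgG were 4.11, 4.01, 4.00, 3.96 and 3.81. The E14 IgG–IgG library had 1 read at the Alk intron, 1 near Dlx4 and 0 at F3, so these heights rest on a control at or near 0 reads. Repeat-masked sequence made up 62.1% of the site near Nrcam. Among the regions that all 4 WT tables listed, the 5 with the largest E14 reChIP differences from IgG–IgG were a site near 4930448K20Rik and the promoters of Aff2, Tbx22, Mycs and Htr2c. The E14 IgG–IgG library had 0, 9, 2, 4 and 5 reads there.

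The WT clone libraries were then compared with IgG–IgG by limma, in 1 fit of all 9 WT clone libraries. The control is a single library, so its spread was assumed to be that of the other WT groups, and these adjusted p-values hold only under that assumption. A region was called where the log2 difference was above 1 in size and the p adjusted by Benjamini-Hochberg over all 38918 regions was under 0.05. K4-K27 was higher than IgG–IgG at 1397 regions (26.3%, against 36.3% of all regions tested) and lower at 69 (1.30%, against 2.00%). K27-K4 was higher at 1400 (26.4%, against 21.7%) and lower at 7 (0.132%, against 1.00%). The median differences were 0.83 and 1.16, against 1.34 and 0.77 over all regions. The share above the control was thus lower than that of all regions tested in K4-K27 and higher in K27-K4. Against the shared regions alone, of which 52.2% and 28.5% were above the control, it was lower in both orders. With each library centred on its median, K4-K27 was higher at 859 (16.2%, against 22.9%) and lower at 286 (5.38%, against 5.39%).

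The WT totals were above IgG–IgG too. Total H3K4me3 was higher at 1101 regions (20.7%, against 30.9% of all) and lower at 13 (0.245%, against 0.799%), and total H3K27me3 was higher at 684 (12.9%, against 9.35%) and lower at 32 (0.602%, against 8.60%). The median differences of 0.84 and 0.69 stood beside 1.32 and 0.24 over all regions. By library, the median total H3K4me3 level above IgG–IgG was 1.11 in clone 57 and 0.57 in clone 58, and that of total H3K27me3 0.85 and 0.52, so clone 57 gave the higher level of both marks. Without the clone 57 library total H3K4me3 was higher at 282 (5.31%, against 7.14% of all) and total H3K27me3 at 253 (4.76%, against 3.05%), so the counts fell and the order against all regions stayed. Total H3K27me3 was higher at 441 (8.30%, against 5.58%) without the clone 58 library. With the E14 IgG–IgG library added to the control it was higher at 253 (4.76%, against 5.32%), where the share was below that of all regions. With centring, total H3K4me3 was higher at 413 (7.77%, against 12.4%) and lower at 102 (1.92%, against 1.91%). K27-K4 was higher than the control at 764 (14.4%, against 11.7%) without its clone 57 library. All of these counts use a single control library, in which 483 of the regions (9.09%) had 0 reads and 4509 (84.9%) at least 5.

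Few of these regions differed between antibody orders in the WT clones. K27-K4 was higher than K4-K27 at 63 (1.19%, against 1.75% of all) and lower at 162 (3.05%, against 20.2%), with a median difference of 0.38 against −0.04 over all regions. In the shared regions with H3K4me3 only, 53.1% were lower in K27-K4 with a median of −1.60. The balance at the regions with neither total depended on single libraries and on the scaling. Rises outnumbered falls without the K4-K27 library of clone 57, with 288 higher (5.42%, against 4.46%) and 106 lower (2.00%, against 16.3%), and without that of clone 58, with 544 higher (10.2%, against 8.98%) and 288 lower (5.42%, against 24.2%). They also did with centring, with 187 higher (3.52%, against 2.61%) and 119 lower (2.24%, against 18%). Without the K27-K4 library of clone 57 there were 2 higher and 86 lower (1.62%, against 13.6%), and without that of clone 58 2 higher and 63 lower (1.19%, against 13.3%). Over all regions falls outnumbered rises in each of these fits.

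The 8 regions with the highest WT reChIP levels above IgG–IgG, among those with at least 5 IgG–IgG reads, were the promoters of Rbm46, Aff2, Ptchd1, Epha5, Tmem150c and 2310069G16Rik with Sybu, and intergenic sites near Lin28b and Tbca. All 8 were listed by all 8 clone tables. The IgG–IgG library had 5 to 20 reads at each, so the differences from it carry that counting error. They were chosen for these differences, which are given as a description with no test. The WT reChIP levels that chose them also enter the comparison with DKO clones.

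Rbm46, which encodes an RNA-binding protein of germ cells, had its region at chr3:82874551-82877550. In E14 cells it lay at 1.91 and 2.21 in K4-K27 and at 1.93 and 3.46 in K27-K4, with total H3K4me3 at −0.66 and −0.64, total H3K27me3 at −0.25 and −0.72 and IgG–IgG at −0.82. All 4 E14 reChIP libraries were high there, and the totals lay close to the control. WT clones 57 and 58 gave 3.61 and 2.87 in K4-K27, 3.75 and 2.87 in K27-K4, 1.21 and −0.15 in total H3K4me3 and 1.37 and 0.94 in total H3K27me3, with IgG–IgG at −2.90 from 6 reads. The differences from IgG–IgG that chose it were 6.14 ± 0.75 (limma SE) for K4-K27 and 6.21 ± 0.75 for K27-K4. DKO clones 43 and 53 gave 1.82 and 0.78 in K4-K27, both below the WT clones, and this fall of 1.94 ± 0.57 was called (limma adjusted p = 0.0321). The K27-K4 levels of 1.92 and 1.48 were also below both WT clones, with a difference of −1.61 ± 0.50 that was not called (adjusted p = 0.0773).

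Aff2, an X-linked gene of a nuclear protein tied to intellectual disability, had its region at chrX:69358951-69362250. E14 K4-K27 gave 1.62 and 2.29 and K27-K4 2.15 and 3.20, above total H3K4me3 at −1.33 and −0.78, total H3K27me3 at −0.34 and −0.81 and IgG–IgG at −1.69. In WT clones K4-K27 was 3.33 and 2.50 and K27-K4 was 3.07 and 2.37, against −2.81 in IgG–IgG. The differences were 5.73 ± 0.74 and 5.53 ± 0.74. In DKO clones K4-K27 was 2.14 and 1.37 and K27-K4 1.98 and 1.52, below the WT clones without overlap, yet neither difference was called (−1.16 and −0.97, limma adjusted p = 0.416 and 0.34).

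The CpG-rich site 14900 bp from Lin28b, whose product blocks let-7 processing, lay at chr10:45485101-45487950 and was in no gene. WT clones gave 3.74 and 3.03 in K4-K27, 3.10 and 1.79 in K27-K4 and 2.82 and 1.22 in total H3K4me3, with IgG–IgG at −2.60. In DKO clones K4-K27 was 3.73 and 2.50 and K27-K4 was 2.78 and 2.45, so the genotypes overlapped in both orders (differences −0.27 and 0.17, limma adjusted p = 0.999 and 0.928). In E14 cells total H3K4me3 lay there at 0.41 and 0.58 against −0.84 in IgG–IgG, and the nearest H3K27me3 region of E14 was 751 bp away. At the site 84470 bp from Tbca (chr13:94700851-94704450) the clones differed more, with 2.51 and 0.59 in WT K4-K27 and 1.37 and 0.92 in WT K27-K4.

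Of the remaining promoters, Ptchd1, a patched-domain membrane protein gene (chrX:155621401-155626500), gave 3.32 and 2.41 in WT K4-K27 and 3.29 and 2.23 in WT K27-K4. Epha5, an ephrin receptor of axon guidance (chr5:84414601-84419100), gave 2.90 and 2.48 and 3.61 and 2.74. Both had IgG–IgG levels of −2.44 and −2.07. The promoter shared by 2310069G16Rik and Sybu (chr15:44785951-44789550) was the member of this set that was called lower in both orders in DKO clones. Its K4-K27 levels were 2.01 and 0.94 in WT and −0.44 and −0.38 in DKO clones, a difference of −1.88 ± 0.56 (limma adjusted p = 0.0317). Its K27-K4 levels were 2.44 and 1.79 against 0.34 and 0.70, a difference of −1.60 ± 0.38 (adjusted p = 0.0136).

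**Figure D4:**
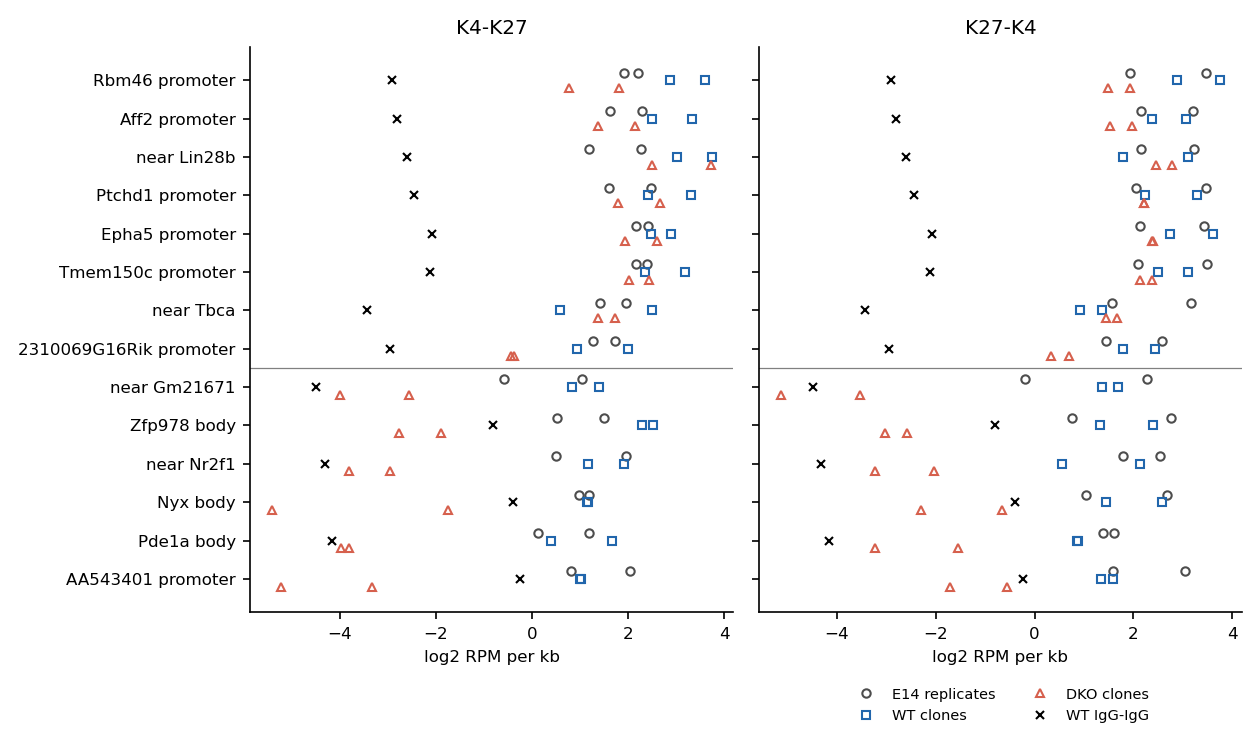
Log2 RPM per kb in K4-K27 (left) and K27-K4 (right) at the 8 regions with the largest WT reChIP differences from IgG–IgG, among those with at least 5 IgG–IgG reads, and, under the line, the 6 with the largest falls in DKO clones, with a point for each E14 replicate and clone and a cross for WT IgG–IgG. At Rbm46 all 4 WT reChIP libraries lie between 2.87 and 3.75, above the 4 DKO reChIP libraries at 0.78 to 1.92, whereas near Lin28b the genotypes overlap.

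DKO clones were compared with WT clones for each ChIP. K4-K27 was lower in DKO clones at 191 regions (3.59%, against 2.10% of all regions tested) and higher at 11 (0.207%, against 0.686%). K27-K4 was lower at 389 (7.32%, against 3.35%) and higher at 5 (0.0941%, against 0.365%). Total H3K4me3 was lower at 490 (9.22%, against 4.94%) and higher at 5 (0.0941%, against 0.185%), and total H3K27me3 was lower at 126 (2.37%, against 1.21%) and higher at 9 (0.169%, against 0.421%). In all 4 ChIPs the share called lower was thus above that of all regions tested and the share called higher below it in these fits. With all clone libraries in 1 fit limma called 0 regions in both totals, where 764 and 182 had an unadjusted p under 0.05. The regions with both totals were called lower at 5.44% in K4-K27, 8.29% in K27-K4, 5.12% in total H3K4me3 and 2.99% in total H3K27me3, and those with H3K27me3 only at 4.35%, 8.95%, 4.06% and 3.41%. Those with H3K4me3 only had lower shares, of 1.72%, 2.16%, 3.78% and 0.485%. The falls were thus not particular to the regions with neither total, whose share was the highest of these classes in total H3K4me3 alone, and the differences between classes were not tested.

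The median differences were −0.38 in K4-K27, −0.30 in K27-K4 and −0.40 in total H3K4me3, against −0.08, −0.04 and −0.05 over all regions, and −0.03 against 0.02 in total H3K27me3. For K4-K27, K27-K4 and total H3K4me3 the medians were −0.36, −0.32 and −0.20 in the regions with both totals and −0.29, −0.31 and −0.21 in those with H3K27me3 only, so the reChIP medians were alike in size across these classes. In the regions with H3K4me3 only the medians were −0.01, 0.08 and 0.06. A difference below 0 was found at 64.8%, 65.5% and 75.3% of the regions (54.6%, 52.3% and 55.3% of all) and at 52.6% for H3K27me3 (47.7% of all). Centring each library on its median gave medians at these regions of −0.20, −0.21, −0.05 and −0.02 beside 0.10, 0.05, 0.29 and 0.04 over all regions, in the same order of ChIPs. Under that scaling 176 (3.31%), 284 (5.35%), 337 (6.34%) and 95 (1.79%) regions were called lower, against 1.92%, 2.45%, 3.75% and 0.863% of all, and 19 (0.358%), 5 (0.0941%), 82 (1.54%) and 6 (0.113%) higher, against 1.28%, 0.365%, 2.58% and 0.195%.

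Both DKO clones lay below both WT clones at 1896 regions in K4-K27 (35.7%, against 21.2% of all), 2216 in K27-K4 (41.7%, against 25.0%), 2464 in total H3K4me3 (46.4%, against 25.2%) and 1296 in total H3K27me3 (24.4%, against 16.7%). Both lay above both WT clones at 630 (11.9%, against 14.1%), 699 (13.2%, against 19.5%), 338 (6.36%, against 8.19%) and 995 (18.7%, against 19.6%). In both reChIP orders together the DKO clones lay below at 1306 (24.6%, against 11.7%).

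**Figure D5:**
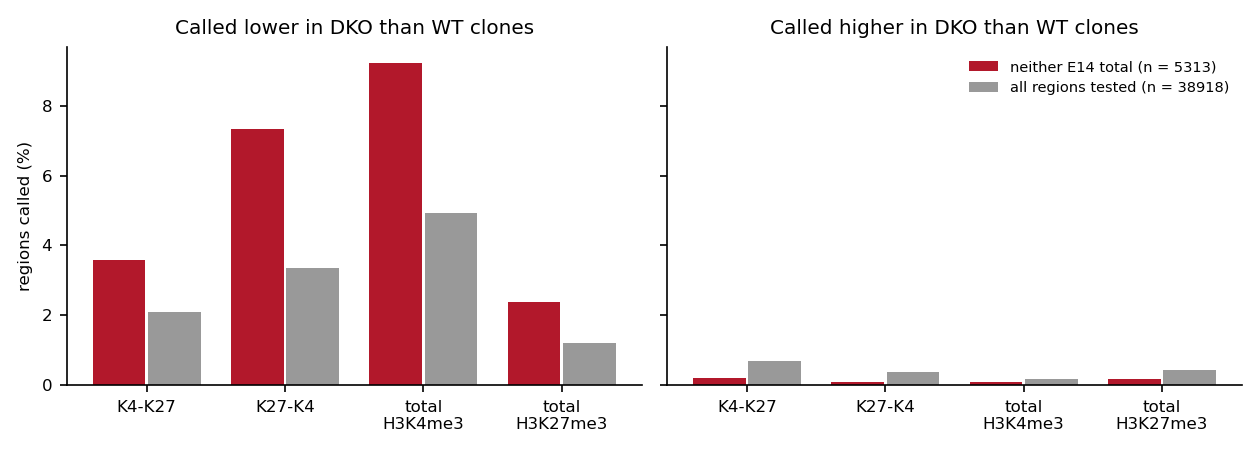
Share (%) of regions called lower or higher in DKO than in WT clones for each ChIP (limma, log2 difference above 1 in size and adjusted p under 0.05), for the regions with neither E14 total and for all 38918 regions. At the regions with neither total 2.37% to 9.22% were called lower, against 1.21% to 4.94% of all regions.

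The counts depended on single clones, and so did their place against all regions. Without WT clone 57 the 202 calls in K4-K27 became 48 (0.903%, against 1.32% of all regions tested), the 495 in total H3K4me3 became 196 (3.69%, against 4.29%) and the 135 in total H3K27me3 became 82 (1.54%, against 2.04%). The share called was thus below that of all regions in these 3 ChIPs. Falls alone made up 0.602% (against 0.486%), 2.37% (against 2.18%) and 0.678% (against 0.524%), close to the shares over all regions. Rises made up 0.301% (against 0.835%), 1.32% (against 2.10%) and 0.866% (against 1.51%), so that over all regions rises outnumbered falls in K4-K27 and total H3K27me3 and came near them in total H3K4me3, while at the regions described here they outnumbered falls in total H3K27me3. In K27-K4 without WT clone 57 falls made up 5.68% (against 3.45%) and rises 2.05% (against 3.04%). Without WT clone 58 the counts were 117 in K4-K27 (2.20%, against 2.11%), 803 in K27-K4 (15.1%, against 10.6%) and 1171 in total H3K4me3 (22.0%, against 14.5%). Without DKO clone 43 they were 114 (2.15%, against 1.18%), 221 (4.16%, against 2.18%) and 72 (1.36%, against 0.696%), with 18 in total H3K27me3 (0.339%, against 0.203%). Without DKO clone 53 there were 256 in K27-K4 (4.82%, against 2.44%) and 117 in total H3K4me3 (2.20%, against 1.13%). With all clone libraries in 1 fit, K4-K27 had 552 calls (10.4%, against 6.29%) and K27-K4 117 (2.20%, against 1.23%). With neither a variance trend nor robust estimation, limma called 0 regions in K4-K27, K27-K4 and total H3K27me3, where 867, 1081 and 502 had an unadjusted p under 0.05.

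Falls in both orders were called at 141 regions (2.65%, against 1.33% of all regions tested). Of these, 71 were promoters, 31 exonic, 6 intronic and 33 intergenic, with a median width of 3300 bp and a densest window of 20 CpGs. Both WT reChIP tables listed 129 of them and no DKO reChIP table listed 113. These tables come from the libraries in which the falls were called, so the listing is a description. Total H3K4me3 was also called lower at 101 (1.90% of the regions, against 0.979% of all tested) and total H3K27me3 at 60 (1.13%, against 0.527%), and all 4 ChIPs at 47 (0.885%, against 0.401%). Total H3K4me3 was called lower at 267 regions (5.03%, against 3.01%) at which neither reChIP was, and 30 of those were promoters.

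The reChIP falls were most frequent where the WT clones listed both totals, as they were over all regions tested, and the falls of total H3K4me3 where they listed H3K4me3 alone. At the 855 regions with both WT totals K4-K27 was called lower at 85 (9.94%, against 6.49% of all regions tested with both WT totals), K27-K4 at 153 (17.9%, against 10.9%) and total H3K4me3 at 106 (12.4%, against 6.58%). At the 1433 with WT H3K4me3 alone the counts were 65 (4.54%, against 1.92%), 107 (7.47%, against 1.97%) and 235 (16.4%, against 5.64%), and at the 457 with WT H3K27me3 alone 11 (2.41%, against 1.33%), 39 (8.53%, against 4.75%) and 9 (1.97%, against 0.984%). At the 2568 with neither WT total they were 30 (1.17%, against 1.05%), 90 (3.50%, against 2.20%) and 140 (5.45%, against 4.31%). These groups were made from the WT tables that enter the comparison, so the order among them is a description.

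The 6 largest falls in both orders were at 2 intergenic sites, 2 introns, an exon and a promoter. The first was an intergenic site 1807 bp from Gm21671 (chr5:25956151-25957500). Its K4-K27 levels were 1.40 and 0.84 in WT clones, from 33 and 26 reads, and −3.98 and −2.55 in DKO clones, from 0 and 3 reads. Its K27-K4 levels were 1.69 and 1.36 from 69 and 59 reads against −5.13 and −3.53 from 0 and 2 reads. Both DKO clones were thus at or near 0 reads in both orders. The fitted differences were −4.39 ± 1.21 (limma adjusted p = 0.0174) and −5.85 ± 0.99 (adjusted p = 0.000438), in which the 0 reads stand as 0.9. The K4-K27 call was lost without either WT library and in the fit with neither a variance trend nor robust estimation, with limma adjusted p-values of 0.00169 to 0.271 over the alternatives. The WT IgG–IgG library also had 0 reads there, so a height above the control cannot be given.

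An intron of the zinc finger gene Zfp978 (chr4:147187201-147188250) fell in all 4 ChIPs. WT clones gave 2.53 and 2.29 in K4-K27 (56 and 55 reads) and 2.40 and 1.33 in K27-K4 (88 and 45 reads). DKO clones gave −1.88 and −2.77 (3 and 2 reads) and −3.03 and −2.58 (3 reads each). The differences were −4.73 ± 0.65 (limma adjusted p = 1.04e-09) in K4-K27 and −4.67 ± 0.56 (adjusted p = 7.59e-06) in K27-K4, with −3.61 in total H3K4me3 and −3.63 in total H3K27me3 (adjusted p = 3.1e-07 and 1.72e-05). Gm21671 and Zfp978 belong to families with near-identical copies, so the values there are uncertain even with a mapping quality above 20, and the part of read placement was not tested. The WT IgG–IgG library had 9 reads and a level of −0.80 at the Zfp978 intron, above all 4 DKO reChIP libraries.

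A site 159478 bp from Nr2f1, a nuclear receptor gene (chr13:78358351-78359550), is 75.8% repeat-masked. Its K4-K27 levels were 1.92 and 1.17 in WT (42 and 29 reads) and −3.81 and −2.96 in DKO clones (0 and 2 reads), a difference of −4.93 ± 1.13 (limma adjusted p = 0.00152). K27-K4 fell by 3.97 ± 0.67 (limma adjusted p = 0.000614) and total H3K4me3 by 2.93 (adjusted p = 3.98e-08), while total H3K27me3 differed by −1.02 (adjusted p = 0.465). An intron of the phosphodiesterase gene Pde1a (chr2:79847101-79848300), 62.3% masked, fell by 4.92 ± 1.37 and 3.25 ± 0.70 (limma adjusted p = 0.0187 and 0.0057). Without the WT clone 57 library the calls near Nr2f1 were lost in both orders and that at Pde1a in K4-K27, and the K27-K4 call at Pde1a was lost with all clone libraries in 1 fit. Over the alternatives the limma adjusted p-values were 2.27e-05 to 0.176 and 4.67e-10 to 0.0956 near Nr2f1 and 0.00365 to 0.121 and 6.24e-06 to 0.108 at Pde1a, for K4-K27 and K27-K4.

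An exon of Nyx, the X-linked gene of the retinal protein nyctalopin (chrX:13485001-13488600), gave 1.15 and 1.16 in WT K4-K27 against −5.40 and −1.74 in DKO clones (0 and 14 reads). In K27-K4 it gave 2.58 and 1.44 against −2.30 and −0.66. The falls of 4.72 ± 1.28 and 3.49 ± 0.60 were called (limma adjusted p = 0.0146 and 0.0156), and so were falls of total H3K4me3 by 1.88 and total H3K27me3 by 2.37 (adjusted p = 0.0163 and 4.29e-06). The K4-K27 call was lost without either WT library (limma adjusted p = 0.00167 to 0.16 over the alternatives) and the K27-K4 call with all clone libraries in 1 fit (3.07e-19 to 0.111).

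The promoter of AA543401 (chr9:107191801-107194650) was the promoter with the largest mean fall over both orders. In WT clones K4-K27 was 1.01 and 1.02 and K27-K4 was 1.59 and 1.35, and DKO clones gave −3.32 and −5.21 (3 and 1 reads) and −0.56 and −1.70. The genotypes were separate in both orders, with few DKO reads in K4-K27. As at Nyx in K4-K27, where WT IgG–IgG lay at −0.39, the DKO reChIP levels here were below the WT IgG–IgG level of −0.24. The differences were −5.28 ± 1.43 (limma adjusted p = 0.0135) and −2.60 ± 0.41 (adjusted p = 0.000267). The first call was lost with the lowest quartile of regions left out (limma adjusted p = 0.000543 to 0.115 over the alternatives) and the second with all clone libraries in 1 fit (2.81e-10 to 0.111).

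The single region called higher in DKO clones in both orders (0.0188% of the regions, against 0.0154% of all tested) was intergenic, 96238 bp from Otol1, the gene of an inner-ear collagen-like protein (chr3:70103851-70105050). Its K4-K27 levels were −0.47 and −2.10 in WT (8 and 3 reads) and 1.98 and 1.5 in DKO clones (50 and 44 reads). Its K27-K4 levels were 0.34 and −0.19 against 1.40 and 1.5. The differences were 3.03 ± 0.60 and 1.37 ± 0.34 (limma adjusted p = 0.000144 and 0.02), and total H3K4me3 was 2.01 higher (adjusted p = 0.000395). All 4 DKO tables listed the region and no WT table did, and WT IgG–IgG had 0 reads there. The K4-K27 call was lost without DKO clone 43 (limma adjusted p = 3.54e-06 to 0.248 over the alternatives), and the K27-K4 call without either DKO library and with all clone libraries in 1 fit (5.39e-05 to 0.284). In 1 order or both, 15 regions were called higher (0.282%, against 1.04%), including sites near Tmem200c, 1700008C04Rik and Mrps23, an intron of Shroom4 and a site near Tex29 with a K27-K4 difference of 1.42 ± 0.36. Of these, K4-K27 had 4 and 0 reads in WT and 21 and 24 in DKO clones near Tmem200c, 0 and 3 against 17 and 24 near 1700008C04Rik, 17 and 2 against 53 and 48 near Mrps23 and 1 and 2 against 14 and 21 at Shroom4. The fitted differences of 3.33, 3.39, 2.88 and 3.37 rest on these few WT reads, with 0 entered as 0.9, and the 4 calls were lost without either DKO library.

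The X chromosome carried 165 of the regions, and these stood further above IgG–IgG in the reChIPs than the autosomal ones, where the control was lower. The median WT reChIP level above IgG–IgG was 2.42 on the X chromosome and 0.96 on autosomes, and that of E14 cells 2.38 and 1.44. The IgG–IgG levels themselves were lower on the X chromosome, with medians of −1.67 (E14) and −1.93 (WT) against −0.64 and −0.67. The reChIP levels themselves lay closer together, with X-linked medians of 0.08 to 1.29 over the 4 E14 reChIP libraries against 0.25 to 1.28 on autosomes, and of 0.10 to 0.44 over the WT clones against −0.03 to 0.39. Promoters made up 44.8% of the X-linked and 24.9% of the autosomal regions, and both WT reChIP tables listed 44.2% and 28.5%. In DKO clones K4-K27 was called lower at 9 X-linked regions (5.45%, against 3.54% of the autosomal ones), K27-K4 at 28 (17.0%, against 7.01%), total H3K4me3 at 27 (16.4%, against 8.99%) and total H3K27me3 at 12 (7.27%, against 2.21%). Of all X-linked regions tested these shares were 2.55%, 5.01%, 6.81% and 2.27%, and of all autosomal ones 2.09%, 3.30%, 4.89% and 1.18%.

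At promoters the regions covered 1465 genes of 26180 at 1357 regions. K4-K27 was called lower in DKO clones at 80 of these promoters (5.90%, against 2.10% of all regions tested), K27-K4 at 139 (10.2%, against 3.35%), total H3K4me3 at 106 (7.81%, against 4.94%) and total H3K27me3 at 44 (3.24%, against 1.21%), and K4-K27 and K27-K4 were above IgG–IgG in WT clones at 631 (46.5%, against 36.3% of all regions tested) and 532 (39.2%, against 21.7%). All regions tested include those away from promoters, and these promoters were not compared with other promoters. Among the genes with a promoter in any shared region, 9.57% of 15305 had a region with neither total. That share was 3.24% for 216 developmental transcription factors, of which 151 had a region with both totals. It was 11% for 91 signalling ligands and receptors, 14.6% for 96 axon guidance and adhesion genes, 12.7% for 197 ion channels and transmitter receptors, 26.3% for 57 clustered protocadherins and 27.1% for 48 germline genes. It was 3.01% for 332 zinc finger genes, 40.0% for 20 keratin genes, 10.0% for 20 histone genes and 0 of 58 ribosomal protein genes. Olfactory and vomeronasal receptors reached 65.0% of the 20 genes that had any shared region, out of 1490 genes in the list, and none of 17 genes of the 2-cell embryo had one of these regions.

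The counts of each list stand beside those of all 1357 promoters, of which 782 (57.6%) were in both WT reChIP tables and 5.90% (K4-K27) and 10.2% (K27-K4) were called lower in DKO clones. The lists hold few regions, and no list was tested against these shares. Developmental transcription factors had 7 such promoters, all in both WT reChIP tables, of which K4-K27 was called lower in DKO clones at 1 and K27-K4 at 2. The forkhead gene Foxi2 (chr7:135409201-135413550) gave 1.87 and 1.85 in WT K4-K27 and 2.64 and 2.31 in WT K27-K4, and −0.47 and −0.73 and then −0.24 and −0.24 in DKO clones. The genotypes were far apart, and the falls of 2.46 ± 0.55 and 2.71 ± 0.36 were called (limma adjusted p = 0.00101 and 1.98e-05). Total H3K4me3 went from 1.13 and 0.07 to −1.16 and −0.72 and total H3K27me3 from 1.74 and 1.31 to −0.29 and −0.04, both called lower (limma adjusted p = 0.0155 and 0.000972). All 4 WT tables and no DKO table listed it. The T-box gene Tbx22 fell in K27-K4 by 1.76 (adjusted p = 0.0121).

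Other promoters of this list were not called in DKO clones. Sox11, a neural SOX factor gene (chr12:27337801-27344700), gave 3.96 and 3.12 in WT K4-K27 and 3.76 and 2.53 in DKO clones, with 3.39 and 2.65 against 3.23 and 2.63 in K27-K4. The genotypes overlapped in K4-K27, and its difference of −0.39 was not called (limma adjusted p = 0.988). Sox30 had a K4-K27 difference of −1.76 (adjusted p = 0.0816) and Sox18 differences of −1.34 and −0.98 (adjusted p = 0.253 and 0.406).

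Signalling ligands and receptors had 12 regions at 10 genes, 11 of them in both WT reChIP tables, with K4-K27 called lower at 2 and K27-K4 at 3. The fibroblast growth factor gene Fgf20 (chr8:40284301-40288050) gave 2.95 and 2.68 in WT K4-K27 and 0.09 and 0.01 in DKO clones. In K27-K4 it gave 3.20 and 2.48 against 0.38 and 0.96, and in total H3K4me3 1.72 and 0.77 against −1.25 and −0.40. No DKO library overlapped a WT library in these 3 ChIPs, and the falls of 2.77 ± 0.52, 2.17 ± 0.43 and 2.07 were called (limma adjusted p = 4.36e-05, 0.00239 and 0.000712), while total H3K27me3 differed by −0.32 (adjusted p = 0.913). Fgf14 fell by 2.19 ± 0.53, 2.18 ± 0.45 and 1.93 in the same 3 ChIPs (limma adjusted p = 0.00381, 0.00361 and 0.00235). Fgf18 and the Wnt receptor gene Fzd10 were not called.

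Axon guidance and adhesion genes had 15 regions at 14 genes, of which 14 were in both WT reChIP tables and 2 were called lower in each order. The semaphorin gene Sema6d fell by 2.05 in K4-K27 and 1.61 in K27-K4 (limma adjusted p = 0.00669 and 0.034), and the ephrin receptors Epha5, Epha6 and Epha7 were not called. Ion channels and transmitter receptors had 25 regions, 19 of them in both WT reChIP tables, with 2 and 3 called lower. Htr2c, Gabrq, Kcnd2 and Cacna1h were not called, and Htr2c had 0 reads in the WT IgG–IgG library. Clustered protocadherins, cell-surface proteins of neurons with near-identical copies, had 13 regions for 15 genes, with 3 and 4 called lower, among them Pcdhb5 by 2.43 in K4-K27 (limma adjusted p = 0.0442) and Pcdhb18 by 1.75 in K27-K4 (adjusted p = 0.00246).

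Germline genes had 13 regions, 9 of them in both WT reChIP tables, with 2 called lower in K4-K27 and 3 in K27-K4. Taf7l, the X-linked TFIID subunit gene of germ cells (chrX:134474251-134477400), gave 1.93 and 1.57 in WT K4-K27 against −1.47 and −0.77 in DKO clones, and 2.34 and 1.86 against 0.19 and −0.08 in K27-K4. Both orders were separate between genotypes, with falls of 2.87 ± 0.59 and 2.04 ± 0.36 (limma adjusted p = 0.000239 and 0.000662), and total H3K27me3 fell by 1.38 (adjusted p = 0.00857). The meiotic genes Sycp2 and Spo11 and the piRNA-pathway gene Tdrkh were not called. Zinc finger genes had 11 regions, 7 of them in both WT reChIP tables, with 1 and 2 called lower. Zfp36l3, an X-linked gene of an mRNA-binding protein (chrX:53773501-53776950), gave 1.81 and 1.58 in WT K4-K27 against −0.60 and −1.32, and 3.04 and 1.94 against −0.22 and −0.10 in K27-K4. It fell by 2.66 ± 0.58 and 2.65 ± 0.39 (limma adjusted p = 0.000725 and 0.000105).

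Of 8 keratin promoters, 1 was in both WT reChIP tables and none was above IgG–IgG in WT clones in either order, and Krt14 gave 0.04 and 0.07 in WT K4-K27 against −0.40 in IgG–IgG. Of 13 olfactory receptor promoters 4 were in both WT reChIP tables and 4 were above IgG–IgG in each order, with a median WT reChIP level of 1.87 above it, and Olfr1349 and Olfr315 had 1 and 0 IgG–IgG reads. The single histone promoter, shared by H2ac1 and H2bc1, fell in K27-K4 by 2.17 (limma adjusted p = 0.00245). The Myc-related X-linked gene Mycs, outside these lists, fell in K27-K4 by 3.07 ± 0.35 (limma adjusted p = 4.14e-06), with a K4-K27 difference of −3.54 (adjusted p = 0.0617). No list had a promoter called higher in DKO clones, and over all 1357 promoters 0 were called higher in K4-K27, 2 in K27-K4, 1 in total H3K4me3 and 1 in total H3K27me3.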

How the data were processed

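Processed files of 26 mouse embryonic stem cell libraries were used, 2 libraries per group and 1 IgG–IgG library per set. The authors trimmed reads, aligned them to mm10 (per the submitters' processing notes GRCm38.p6, with Trim Galore 0.6.6, BWA 0.7.13, SAMtools 1.9, Picard 2.6.0, deepTools 3.5.0 and MACS2), and deposited log2 values of RPM per kb over called regions, from alignments with mapping quality above 20. Whole reads were recovered from the steps of these values (100% came out whole) and served to describe depth and to set the minimum of IgG–IgG reads for naming regions, with 6741244 to 47903462 reads per library (median 16875025). The authors' own differential test used edgeR on csaw counts, which were not used here. The design named limma for log2 values, and limma was used.

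Columns were matched to samples by name (240 used), and 32 columns of values that belong to no sample of the series were not used. The regions tested were those of the E14 K4-K27 and K27-K4 tables together, and the other 10 of 12 tables served for overlaps and marker checks. Values were compared per region with limma 3.58.1 (R 4.3.3, trend and robust eBayes) and Benjamini-Hochberg adjustment over 38918 regions, after tests on simulated data. Fits of DKO against WT clones and of the antibody orders held only the ChIPs compared, and the comparisons with IgG–IgG came from 1 fit of all 9 WT clone libraries. Overlap meant 1 bp. Other steps ran in Python 3.11.15 (matplotlib 3.10.9, scipy 1.17.1, pandas 2.3.3, numpy 2.4.6). Promoters, sequence and repeats came from RefSeq GRCm38. The members, lists and tests were chosen with earlier results of these data known. Regions were named by fixed rules: the 8 furthest above IgG–IgG in WT reChIPs with at least 5 IgG–IgG reads, the 6 largest falls and rises in DKO clones, up to 4 promoters per gene list, the 5 furthest above IgG–IgG in E14 reChIPs listed by all WT tables or by no clone table, and 5 at each edge of the rule. Further genes of the lists with calls were named after their values were seen. The same clone is the same cell line across ChIPs, so clones pair the WT libraries. Deviations of paired libraries correlated at 0.024 (K4-K27 with K27-K4), 0.296 (total H3K4me3 with K4-K27) and 0.105 (total H3K27me3 with K27-K4) over 38918 regions. DKO and WT clones share no clone and were not paired. Alternatives varied scaling, variance model, regions tested, threshold, fit, IgG–IgG libraries, pairing, overlap, promoter width and each library left out.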

Additional observations from a re-analysis of the deposited data

How the results depend on the processing

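The counts in this paragraph show how the calls move with the setting. They are not set against the shares over all regions, which also move, and say nothing of the regions relative to these. For DKO against WT clones the counts of calls at the regions were 202 (K4-K27), 394 (K27-K4), 495 (total H3K4me3) and 135 (total H3K27me3). With neither a variance trend nor robust estimation limma gave 0, 0, 307 and 0, with 867, 1081, 934 and 502 at an unadjusted p under 0.05. Over shared regions only it gave 328, 800 and 215 for K4-K27, K27-K4 and total H3K27me3, and with the lowest quartile left out 243 for total H3K4me3. With all clone libraries in 1 fit it gave 552, 117, 0 and 0, where the last 2 had 764 and 182 at an unadjusted p under 0.05. Leaving out each library in turn gave 48 to 144, 221 to 803, 72 to 1171 and 18 to 151. For WT clones against IgG–IgG the same gave 1375 to 1830 in K4-K27, 781 to 1268 in K27-K4, 283 to 1386 in total H3K4me3 and 264 to 456 in total H3K27me3, and 65 to 832 for K27-K4 against K4-K27. Centring gave 515 for WT total H3K4me3, the added E14 IgG–IgG library 289 for WT total H3K27me3, and the fit with neither trend nor robust estimation 119 for the order comparison. With the clone as a replicate block, the WT counts against IgG–IgG were 1722, 1698, 1600 and 1011 and the order count 211, and no count moved by over 1.5 times. The cause of these shifts was not tested.

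The number of regions was 2568 when the WT clone totals also counted as totals and 2249 when each E14 reChIP library had to be at least 1 log2 unit above IgG–IgG. The share at promoters was 32.1% within 5 kb of a start site, 23.9% from 1 kb before to 100 bp after it, and 31.6% in the strong regions alone. Of the other settings, 61 kept these results within their limits, and of the 230 for named regions 177 kept the call, 47 lost it, 3 gained it and 3 moved a value without a call. No named call changed its sign. The falls at the Zfp978 intron in both orders, and that near Gm21671 in K27-K4, lost their call only in the fit with neither a variance trend nor robust estimation. With 2 clones per genotype and medians of 17 to 69 reads per region in the clone libraries, single regions carry large counting error, and the control is 1 library.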
